A study of Mus musculus with 12 samples.

Results

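The 47 DNA replication genes described here encode proteins that license replication origins, unwind DNA and copy it, or, for 4 of the genes, supply deoxynucleotides. They were chosen by name as core replication factors, with earlier results of these data known, and they are 47 of the 21169 genes that the array names. The RNA came from mouse embryonic stem (ES) cells, in a study that by its title asks where acetylation of lysine 16 on histone H4 is gained and lost as ES cells differentiate. Undifferentiated cells were compared with cells given 3 days of retinoic acid, a vitamin A derivative that drives ES cells to differentiate. Each group had 3 biological samples, and each sample was hybridised to 2 technical arrays. The cell line, the medium, the retinoic acid dose and any feeder layer are not given in the sources used here. The labels do not say that the biological samples were grown as separate cultures, and the p-values then cover only the spread seen among these 6 samples, which may be technical.

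DNA replication starts at origins. The origin recognition complex binds there, Cdc6 and Cdt1 load the ring of Mcm2 to Mcm7 onto DNA, and geminin, the product of Gmnn, holds Cdt1 in check so that an origin is not licensed again in the same cell cycle. The kinase Cdc7 with its activator Dbf4, and the factors Cdc45, Mcm10 and GINS, turn the loaded ring into a moving helicase. Polymerase alpha with primase then lays down primers. Polymerases delta and epsilon extend them with the sliding clamp Pcna, and Fen1 and Lig1 join the lagging strand fragments. Mouse ES cells are known for a short G1 phase and a large share of cells in S phase, and genes of this kind are classical targets of the E2F transcription factors.

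Promoters are shown first for 7 of the genes, because they differ in whether they hold the E2F motif and in how the gene changed. RefSeq promoters of assembly GRCm38.p6 were matched for 39 of the 47 genes, 7 of which have more than 1, as windows of 250 bases before and 50 bases after a transcription start. The motif was searched as TTTCCCGC, TTTCGCGC, TTTGCCGC or TTTGGCGC on both strands, and matches may overlap. The 250 bases before the start are printed 5′ to 3′ on the strand of the gene, with motif letters in capitals. Orc1 and Pola1 were lower after retinoic acid and hold the motif, Mcm5, Mcm6 and Cdc6 hold it and did not pass the test, and Mcm10 and Dbf4 were lower and have no match in the window.
Orc1, chr4:108579204-108579453, plus strand: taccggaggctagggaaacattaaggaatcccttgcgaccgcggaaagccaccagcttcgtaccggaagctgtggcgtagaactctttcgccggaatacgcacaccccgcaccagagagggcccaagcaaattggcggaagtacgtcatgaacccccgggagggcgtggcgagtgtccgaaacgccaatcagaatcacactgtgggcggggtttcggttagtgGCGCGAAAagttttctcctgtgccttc
Pola1, chrX:93632156-93632405, minus strand: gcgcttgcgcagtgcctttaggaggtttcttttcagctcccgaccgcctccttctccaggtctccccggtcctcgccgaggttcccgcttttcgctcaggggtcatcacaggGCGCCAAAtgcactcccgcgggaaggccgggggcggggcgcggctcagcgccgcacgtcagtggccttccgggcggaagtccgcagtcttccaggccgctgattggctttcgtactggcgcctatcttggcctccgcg
Mcm5, chr8:75109259-75109508, plus strand: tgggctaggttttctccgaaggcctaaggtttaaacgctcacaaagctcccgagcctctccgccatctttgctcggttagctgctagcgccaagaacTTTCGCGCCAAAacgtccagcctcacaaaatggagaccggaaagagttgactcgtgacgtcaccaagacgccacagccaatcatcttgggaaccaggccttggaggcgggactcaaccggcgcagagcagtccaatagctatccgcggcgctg
Mcm6, chr1:128359706-128359955, minus strand: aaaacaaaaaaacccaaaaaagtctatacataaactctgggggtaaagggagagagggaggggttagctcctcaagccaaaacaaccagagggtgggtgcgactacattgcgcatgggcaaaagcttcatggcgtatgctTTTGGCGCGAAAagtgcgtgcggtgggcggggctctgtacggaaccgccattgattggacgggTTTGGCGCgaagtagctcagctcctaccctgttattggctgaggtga
Cdc6, chr11:98907901-98908150, plus strand: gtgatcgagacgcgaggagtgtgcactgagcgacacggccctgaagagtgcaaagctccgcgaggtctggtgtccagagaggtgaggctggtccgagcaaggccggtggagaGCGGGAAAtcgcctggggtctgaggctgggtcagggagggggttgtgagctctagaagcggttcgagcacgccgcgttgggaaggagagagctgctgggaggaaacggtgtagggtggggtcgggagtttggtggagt
Mcm10, chr2:5012792-5013041, minus strand: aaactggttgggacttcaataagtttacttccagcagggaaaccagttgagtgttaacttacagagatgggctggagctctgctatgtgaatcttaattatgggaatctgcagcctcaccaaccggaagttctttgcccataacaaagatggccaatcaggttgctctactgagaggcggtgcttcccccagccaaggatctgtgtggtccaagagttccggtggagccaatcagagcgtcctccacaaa
Dbf4, chr5:8422717-8422966, minus strand: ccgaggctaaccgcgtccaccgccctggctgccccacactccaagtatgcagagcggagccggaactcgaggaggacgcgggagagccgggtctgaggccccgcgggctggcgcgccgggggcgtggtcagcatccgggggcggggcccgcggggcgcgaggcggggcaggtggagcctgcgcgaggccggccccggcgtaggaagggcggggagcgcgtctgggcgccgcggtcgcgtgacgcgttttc

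The match in Orc1 begins 27 bases before the start, and the match in Pola1 begins 138 bases before it. Mcm5 holds a pair of overlapping matches, 153 and 149 bases before the start, that read as 1 run of capitals. Mcm6 holds 3, of which those at 110 and 106 bases overlap and the other lies at 47 bases. In the whole 300-base window, 15 of the 39 matched genes (38.5%) had a match, against 2.61% of the 27025 genes in the promoter table. For 9 of the 15 genes a match began before the transcription start. The shorter CCAAT motif, searched on both strands, was in 61.5% of the matched genes and in 41.1% of all genes. A match was found in 5 of the 10 matched genes that fell and in 10 of the 29 that did not pass the test. The median log2 difference was -0.29 over the matched genes with a match and -0.23 over those without. A match describes the letters of the window only and says nothing about binding.

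Levels are given as log2 of the intensity plus 50, after quantile normalization, which gives every array the same distribution of intensities. A difference is retinoic acid minus undifferentiated on that scale, so that -1 is a 2-fold fall, and it is given with the standard error (SE) of the fit over 3 against 3 samples. The added value understates the change of dim genes. A gene was called when its adjusted p was under 0.05 in limma, with Benjamini-Hochberg adjustment over the 15322 genes tested. All 47 genes were above the limit set by negative control spots on all 12 arrays, and all were tested. In such bulk RNA, fewer cells of a type and less RNA per cell cannot be told apart.

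Of the 47 genes, 11 (23.4%) fell after retinoic acid, 0 rose, and 36 did not pass the limma test. Of all genes tested, 13.6% fell and 18.7% rose. At an unadjusted p under 0.05, 17 of the 47 were lower and 0 higher, beside 18.8% and 23.9% of all genes tested. The 11 genes that fell were Orc1, Orc2 and Orc5 of the origin recognition complex, Mcm3, Mcm8, Mcm10, the kinase activator Dbf4, the GINS subunit Gins1, the polymerase subunits Pola1 and Pole2, and the clamp loader subunit Rfc5. Only 3 of them, Orc1, Orc5 and Mcm10, fell by more than 2-fold. The median difference over the 47 genes was -0.25, beside 0.0035 over all genes tested, and 36 of the 47 differences were negative.
The 3 retinoic acid samples lay below all 3 undifferentiated samples in 16 of the 47 genes (34.0%), where 20.8% of all genes tested did so. They lay above in 1 gene, Rrm1, where 25.7% of all genes did so, and the groups overlapped in the other 30.

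**Figure D1:**
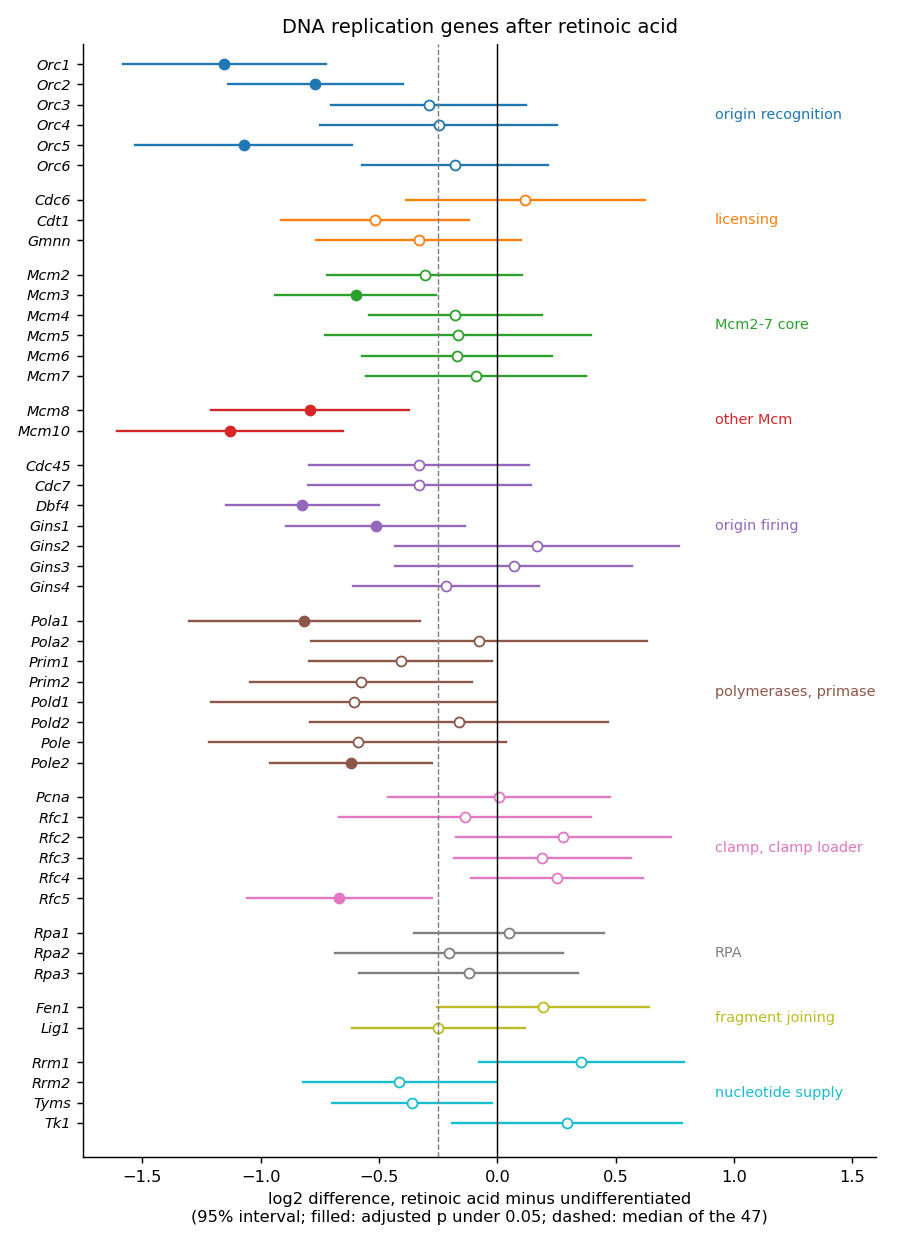
Log2 difference of each of the 47 genes (horizontal axis, retinoic acid minus undifferentiated, 3 against 3 samples, quantile-normalized) with its 95% interval, grouped by role on the vertical axis. Filled points mark the 11 genes called lower, and the dashed line marks the median of -0.25; 36 of the 47 points lie left of 0.

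The origin recognition complex had the most calls of any role, 3 of 6 genes, with a median difference of -0.53. Orc1, its largest subunit and an ATPase, had levels of 11.49, 11.23 and 11.06 in the undifferentiated samples and 9.93, 10.35 and 10.05 after retinoic acid. The lowest undifferentiated sample was above the highest retinoic acid sample. Orc1 fell by 1.15 on the log2 scale (SE 0.185, limma adjusted p = 0.00254), to 44.9% of the undifferentiated level. Orc5, another ATPase-fold subunit, had levels of 11.69, 11.18 and 11.31 in undifferentiated cells and 10.14, 10.58 and 10.24 in treated cells. These groups did not overlap either. Its difference was -1.07 (SE 0.198, limma adjusted p = 0.00485). Orc2, a core subunit, went from 11.10, 10.86 and 10.89 to 10.19, 10.34 and 10.02, again without overlap, a difference of -0.77 (SE 0.159, limma adjusted p = 0.00802). The other subunits, Orc3, Orc4 and Orc6, had differences of -0.29, -0.25 and -0.18 on their brightest probes, where their groups overlapped. Further Orc3 probes read -0.45 and -0.40 without overlap between the groups, and neither was called. Orc1, Orc2 and Orc5 were called in each of the 6 fits that left out 1 sample. A further, dimmer Orc5 probe was above the limit on 2 of the 6 treated arrays, so its reading of -0.38, which was not called, is set against a group mostly at background. Orc1 and Orc2 have 1 probe each.

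None of the 3 licensing genes passed the test. Cdt1, the factor that brings the Mcm ring to the origin, had levels of 13.09, 13.39 and 12.92 in undifferentiated cells and 12.51, 12.71 and 12.63 after retinoic acid. The groups did not overlap, but at -0.52 (SE 0.171) the gene missed the threshold (limma adjusted p = 0.0526). Without undifferentiated replicate 3 it was -0.62, with an adjusted p = 0.0321. Gmnn, which encodes the inhibitor of Cdt1, had levels of 13.03, 13.37 and 13.40, and then of 12.85, 13.20 and 12.75. These overlapped, and the difference was -0.33 (SE 0.187, limma adjusted p = 0.219). Cdc6, the ATPase that loads Mcm together with Cdt1, read 0.12 on its brightest probe and -0.12 on a further probe, neither of them called.

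Among the 6 subunits of the Mcm2 to Mcm7 ring, 1 fell, and the median difference was -0.17. Mcm3 had levels of 14.27, 14.31 and 14.06 in the undifferentiated samples and 13.65, 13.58 and 13.61 after treatment. The treated samples lay close together and below every undifferentiated one. The difference was -0.60 (SE 0.147, limma adjusted p = 0.0167). The second Mcm3 probe, of another accession, read -0.77 and was also called, with an adjusted p = 0.0273 over all probes that passed the filter. The Mcm3 call was lost without undifferentiated replicate 1, retinoic acid replicate 1 or retinoic acid replicate 3 (limma adjusted p = 0.0572, 0.0570 and 0.0723). Mcm2 had levels of 13.72, 13.69 and 13.24 and then of 13.15, 13.24 and 13.33. Its undifferentiated replicate 3 lay within the treated range. The difference was -0.31 (SE 0.178, limma adjusted p = 0.233). The other 4 ring subunits, Mcm4, Mcm5, Mcm6 and Mcm7, had differences between -0.18 and -0.09. Their 95% intervals reached from -0.73 to 0.39, so a fall of over 1.5-fold in Mcm5 was within the error.

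Mcm8 and Mcm10, which are not part of that ring, both fell. Mcm10, a fork factor that binds the helicase and polymerase alpha and despite its name is no member of the Mcm helicase family, had levels of 12.55, 13.10 and 12.43 in undifferentiated cells. After retinoic acid they were 11.48, 11.70 and 11.51. The lowest undifferentiated sample stood clear of the highest treated one. The difference was -1.13 (SE 0.206, limma adjusted p = 0.00463), or 45.7% of the undifferentiated level, and it was called in all 6 fits that left out a sample. Mcm8, a helicase of recombination repair, went from 10.84, 11.20 and 10.89 to 10.04, 10.44 and 10.07, with no overlap. The difference was -0.79 (SE 0.180, limma adjusted p = 0.0122). The call was lost without retinoic acid replicate 1 or 3 (adjusted p = 0.0555 and 0.0604), and a dimmer second Mcm8 probe read -0.56 and was not called.

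Of the 7 genes that activate the helicase, Dbf4 and Gins1 fell. Dbf4, the regulatory subunit that Cdc7 needs for activity, had levels of 12.33, 12.34 and 12.44 in undifferentiated cells and 11.58, 11.58 and 11.47 in treated cells. Samples of a group differed by little beside the gap between the groups. The difference was -0.82 (SE 0.139, limma adjusted p = 0.00325), and the fits that left out a sample gave -0.84 to -0.79, all called. A dimmer Dbf4 probe, above the limit on all 6 undifferentiated arrays and on 0 of the 6 treated arrays, has only a bound after treatment and was not called. Gins1 had levels of 11.33, 11.30 and 11.42 and then of 10.84, 11.05 and 10.62. These did not overlap, but the call was the closest of the 11 to the threshold, at a difference of -0.51 (SE 0.164, limma adjusted p = 0.0452). It was lost in 5 of the 6 fits that left out a sample, all but the one without retinoic acid replicate 2, with adjusted p from 0.0573 to 0.185. The kinase Cdc7 itself and Cdc45, a helicase subunit, both had a difference of -0.33, and their groups overlapped. The remaining GINS subunits Gins2, Gins3 and Gins4 read 0.17, 0.07 and -0.22, none of them called.

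All 8 genes for polymerases and primase had negative differences, with a median of -0.58, and 2 of them were called. Pola1, the catalytic subunit of polymerase alpha, had levels of 11.48, 11.07 and 11.40 in undifferentiated cells and 10.59, 10.77 and 10.14 after retinoic acid. The groups were apart, although the treated samples spread widely. The difference was -0.82 (SE 0.211, limma adjusted p = 0.0207). The call was lost without replicate 1 or 3 of either group, with adjusted p from 0.0506 to 0.0819. Pole2, the second subunit of polymerase epsilon, had nearly equal undifferentiated levels of 10.88, 10.87 and 10.88, and 10.09, 10.38 and 10.31 after treatment. All treated samples were lower, and the difference was -0.62 (SE 0.148, limma adjusted p = 0.0150). That call was lost without retinoic acid replicate 1 or 3 (adjusted p = 0.0735 and 0.0577).
The primase subunits Prim1 and Prim2 had differences of -0.41 and -0.58, without overlap between the groups and without a call (adjusted p = 0.100 and 0.0640). Prim2 was called without undifferentiated replicate 3, at -0.76 (adjusted p = 0.0173). Pold1, the catalytic subunit of polymerase delta, turned on the same sample. Its undifferentiated levels were 13.002, 13.05 and 12.09, and its treated levels 12.08, 12.17 and 12.08. With all samples the difference was -0.61 (adjusted p = 0.117), and without undifferentiated replicate 3 it was -0.92 (adjusted p = 0.00456). A second Pold1 probe read -0.63, with the same sample low among the undifferentiated ones. Pole, the catalytic subunit of polymerase epsilon, read -0.59, and Pold2, an accessory subunit of polymerase delta, read -0.16. For Pola2, the second subunit of polymerase alpha, the difference was -0.08, and 1 pair of technical arrays differed by 1.02, the widest such gap among the 47 genes.

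**Figure D2:**
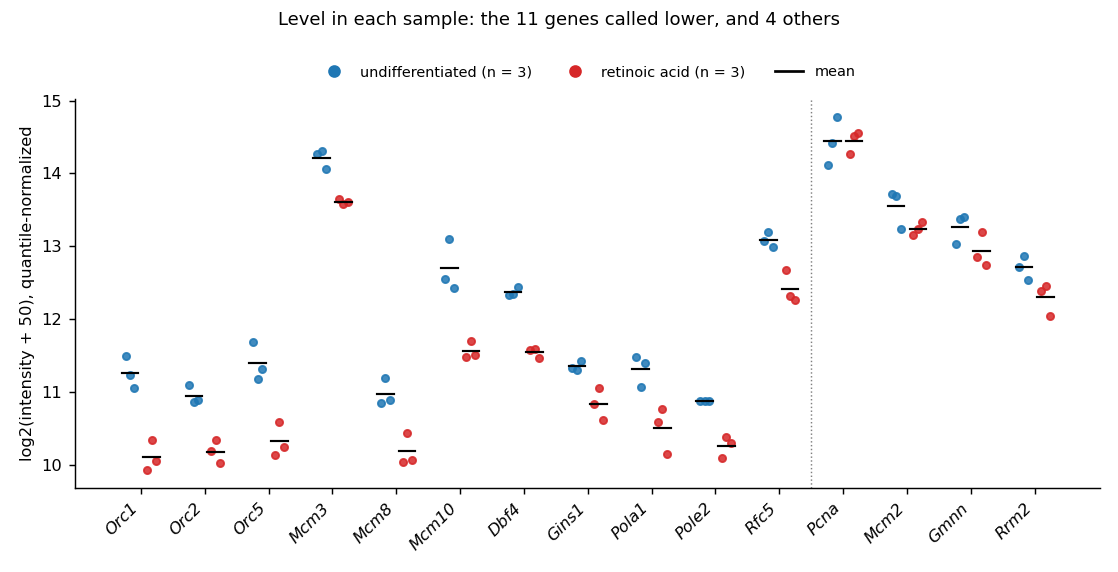
Level of 15 genes in each of the 6 samples (vertical axis, log2 of quantile-normalized intensity plus 50; technical arrays averaged), with a bar at the mean of each group. Left of the dotted line are the 11 genes called lower, where no treated sample reaches an undifferentiated one; to the right are Pcna, Mcm2 and Gmnn, whose groups overlap, and Rrm2, whose groups do not.

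The clamp and its loader had a median difference of 0.10, which turned to -0.26 under 75th percentile scaling, and 1 of the 6 genes fell. Pcna, the sliding clamp and a common marker of cycling cells, had levels of 14.12, 14.42 and 14.78 in undifferentiated cells and 14.27, 14.52 and 14.56 after retinoic acid. The treated samples lay inside the undifferentiated range. The difference was 0.0062 (SE 0.203, limma adjusted p = 0.987), with a 95% interval from -0.46 to 0.48. On 2 of the 12 arrays the Pcna spot was over 40000, near the brightest spots of the arrays, so a difference there may be understated. Rfc5, a small subunit of the clamp loader, was the 1 gene of these that fell. Its levels were 13.08, 13.20 and 12.99 and then 12.67, 12.32 and 12.27, with no overlap. The difference was -0.67 (SE 0.169, limma adjusted p = 0.0189). The Rfc5 call was lost without undifferentiated replicate 1, retinoic acid replicate 2 or retinoic acid replicate 3 (adjusted p = 0.0546, 0.0573 and 0.0899). Rfc2, Rfc3 and Rfc4, the other small subunits, read 0.28, 0.19 and 0.25, and the large subunit Rfc1 read -0.14, none of them called. Whether Rfc5 differs from the other subunits was not tested.

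The 3 subunits of replication protein A, which coats unwound DNA, had differences of 0.05 for Rpa1, -0.21 for Rpa2 and -0.12 for Rpa3, all with overlapping groups. The second probe of Rpa2 read -0.76 with no overlap but was not called (adjusted p = 0.0836). Whether the Rpa2 probes differ was not tested. Fen1, the flap nuclease, read 0.19, and Lig1, the ligase, read -0.25.
In the supply of deoxynucleotides, 0 of 4 genes were called, and the subunits of ribonucleotide reductase differed in sign under quantile normalization. Rrm2, the small subunit, whose amount is known to follow S phase, had levels of 12.72, 12.87 and 12.54 in undifferentiated cells and 12.39, 12.46 and 12.05 in treated cells. The groups did not overlap, and the difference was -0.41 (SE 0.176, limma adjusted p = 0.111). Rrm1, the large subunit, had levels of 12.49, 12.38 and 11.97 and then of 12.81, 12.58 and 12.51. All treated samples were above the undifferentiated ones, yet the difference of 0.36 did not pass the test (adjusted p = 0.193). Tyms, thymidylate synthase, read -0.36 on its brightest probe and -0.40 on a second one, both without overlap. The array also names a Tyms pseudogene, Tyms-ps, and how much signal the near-identical copies share is uncertain. Tk1, the thymidine kinase of cycling cells, read 0.29.

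**Figure D3:**
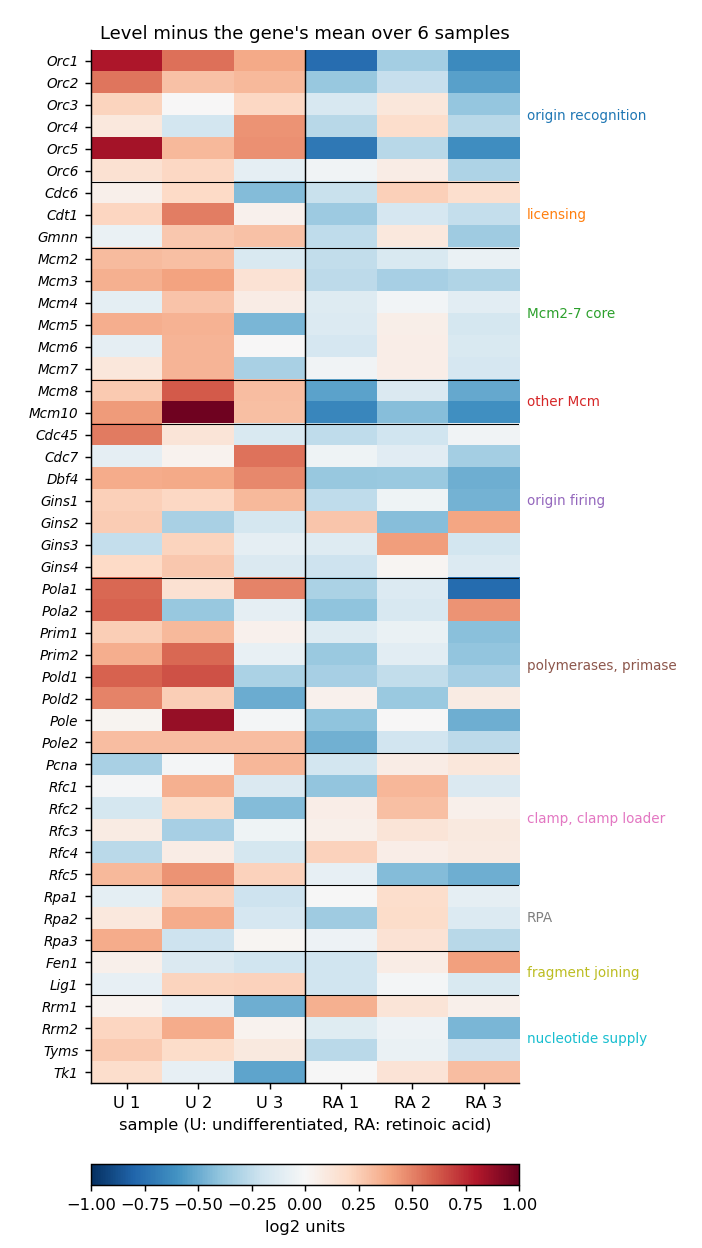
Level of each of the 47 genes (rows, grouped by role) in each of the 6 samples (columns), as the log2 difference from the mean of that gene over the 6 samples; red is above and blue below that mean. Averaged over the genes, undifferentiated replicates 1 and 2 lie at 0.20 and 0.23 and replicate 3 at 0.02, and treated replicates 1, 2 and 3 lie at -0.21, -0.04 and -0.20.

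The samples of a group did not stand level with each other. Averaged over the 47 genes, undifferentiated replicates 1 and 2 lay 0.20 and 0.23 above the mean of the 6 samples, and replicate 3 lay 0.02 above it. After retinoic acid, replicates 1 and 3 lay at -0.21 and -0.20, and replicate 2 at -0.04. The number of genes called lower was 7 when undifferentiated replicate 1 was left out, 6 when it was retinoic acid replicate 1, and 5 when it was retinoic acid replicate 3. It was 10 when replicate 2 of either group was left out and 12 without undifferentiated replicate 3. Orc1, Orc2, Orc5, Mcm10 and Dbf4 were the 5 genes called in all 6 of these fits. For the 36 genes not called, the 95% intervals reached from -1.22 to 0.79, with a median SE of 0.19 over all 47 genes, so falls of the size seen in Mcm3 were within the error of many of them.

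How many of the genes were called depended on the scaling of the arrays. The 75th percentile of the unscaled intensities was higher after retinoic acid in each replicate number, 388 against 316, 361 against 327 and 780 against 534. Scaling each array to that percentile, in place of quantile normalization, gave 21 genes lower and 0 higher, where 17.2% of all genes tested were lower and 15.9% higher. Scaling to the median gave 16 lower, against 14.6% of all genes lower and 15.5% higher. Cyclic loess gave 12 lower, against 13.1% lower and 19.3% higher, and the 75th percentile over probes above background on all 12 arrays, an alternative chosen after seeing the data, gave 15 lower, against 12.9% lower and 21.6% higher. All 11 genes named above were called under each of the 5 scalings, and 0 of the 47 genes were called higher under any of them in limma. The count higher was also 0 at an unadjusted p under 0.05, where 20.1% of all genes were higher under the 75th percentile, 20.2% under the median, 24.6% under cyclic loess and 26.7% over probes above background.

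The median difference of the 47 genes was -0.25 under quantile normalization, -0.56 under the 75th percentile, -0.53 under the median, -0.26 under cyclic loess and -0.37 under the 75th percentile over probes above background. Over all genes tested the medians were 0.0035, -0.09, -0.06, 0.03 and 0.06, so the gap between the 47 genes and all genes was -0.25 to -0.48. In the 8375 genes tested whose mean level lay between the lowest and highest of the 47, the medians were -0.001, -0.18, -0.15, 0.02 and 0.01, and 16.4%, 22.7%, 19.2%, 15.7% and 16.6% were lower. The move from quantile to 75th percentile scaling was larger for brighter probes. It ranged from 0.01 for Prim2, the dimmest of the probes that stood for the 47 genes, to -0.43 for Pcna, the brightest, with a median of -0.32. Its rank correlation with the mean level was -0.989 over the 47 genes, which share the same 12 arrays.

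**Figure D4:**
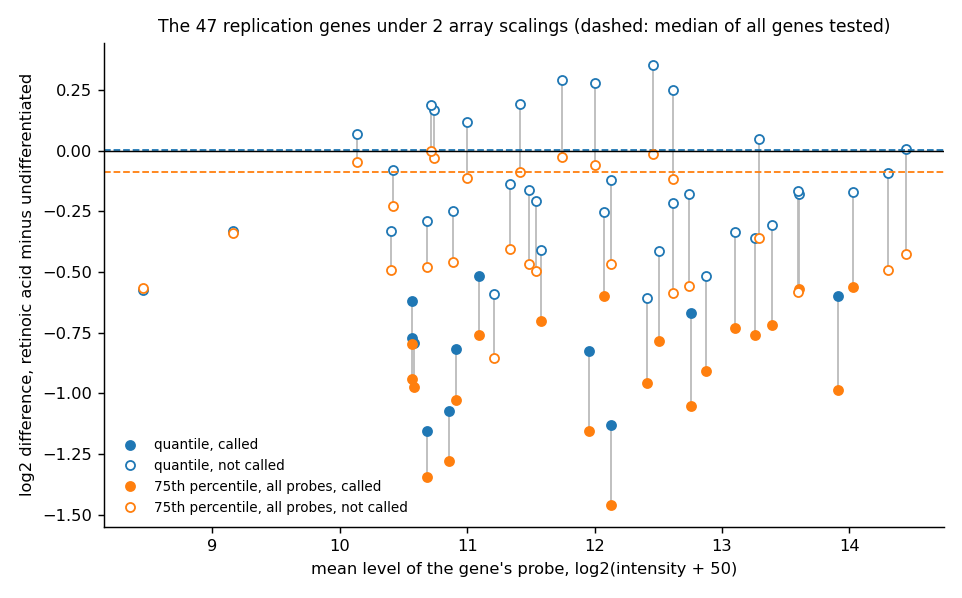
Log2 difference of each of the 47 genes (vertical axis, retinoic acid minus undifferentiated) under quantile normalization (blue) and under scaling to the 75th percentile of all probes (orange), against the mean level of its probe (horizontal axis, log2 of intensity plus 50). Filled points are called, 11 in blue and 21 in orange; grey lines join the values of a gene and lengthen toward brighter probes, and dashed lines give the medians of all genes tested, 0.0035 and -0.09.

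The 10 genes gained under the 75th percentile were Cdt1, Gmnn, Mcm2, Mcm4, Mcm6, Prim1, Pold1, Lig1, Rrm2 and Tyms. Cdt1 was called under every scaling other than quantile normalization, at -0.91, -0.87, -0.54 and -0.70 under the 75th percentile, the median, cyclic loess and the 75th percentile over probes above background. Prim1, Rrm2 and Tyms were called under all but quantile and cyclic loess. Under the 75th percentile they read -0.70, -0.78 and -0.76, under the median -0.67, -0.75 and -0.72, under cyclic loess -0.42, -0.44 and -0.37, and over probes above background -0.50, -0.58 and -0.56. Pold1 was called under the 75th percentile and the median, at -0.96 and -0.92, and read -0.62 and -0.76 under the others. The other 5 passed only under the 75th percentile. There Gmnn read -0.73, Mcm2 -0.72, Mcm4 -0.57, Mcm6 -0.56 and Lig1 -0.60. Under the median these read -0.69, -0.68, -0.54, -0.53 and -0.56, under cyclic loess -0.35, -0.32, -0.16, -0.12 and -0.28, and over probes above background -0.53, -0.52, -0.37, -0.36 and -0.40.

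The sign of 11 genes also turned with the scaling, and none of these was called under any scaling. All 11 were above 0 under quantile normalization and cyclic loess and below 0 under the 75th percentile. Pcna read 0.0062 and 0.04 under quantile and cyclic loess, and -0.42, -0.39 and -0.22 under the 75th percentile, the median and the probes above background. Rpa1 read 0.05 and 0.04, and then -0.36, -0.32 and -0.15. Rrm1 read 0.36 and 0.33, and then -0.01, 0.02 and 0.19. For Cdc6, Gins2, Gins3, Rfc2, Rfc3, Rfc4, Fen1 and Tk1, quantile values of 0.07 to 0.29 went with 75th percentile values of -0.12 to -0.0025. These 8 genes read 0.12 to 0.27 under cyclic loess, -0.08 to 0.03 under the median and 0.09 to 0.19 over probes above background. The remaining 36 genes were below 0 under all 5 scalings.

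A second way to look at a gene is through its other probes. The 47 genes had 71 probes, and 17 genes had more than 1. Of the 24 further probes, 18 passed the filter. The dimmer probes of Orc5 and Dbf4 passed through the undifferentiated arrays only, where a negative sign was favoured, so their signs are not counted. The other 16 passed in both groups, at differences from -0.77 to 0.18, and the sign matched the brightest probe of the gene for all of them but Cdc6. Of the 18, 1 was called lower, the second probe of Mcm3, where 12.1% of all probes that passed the filter were called lower. Probes of a gene read the same RNA samples and are no further replicates.

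**Figure D5:**
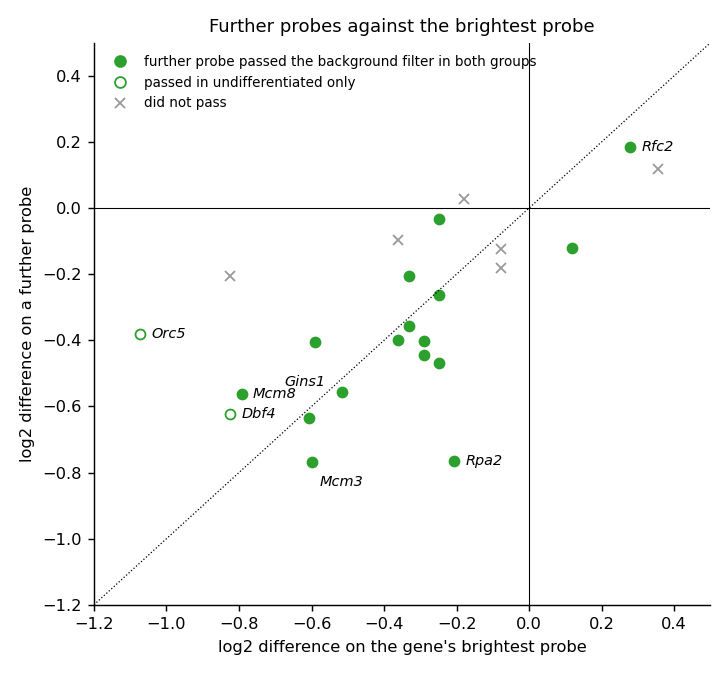
Log2 difference on each further probe (vertical axis) against the brightest probe of the same gene (horizontal axis), quantile-normalized, retinoic acid minus undifferentiated. Filled points are the 16 further probes that passed the background filter in both groups, open points those of Orc5 and Dbf4, which passed in undifferentiated samples only and are mostly or wholly at background after treatment, and crosses the 6 that did not pass; the dotted line marks equal values, and Rpa2 lies well below it.

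Other genes of the replication pathway were counted from lists chosen by function. Among 26 further replication factors, 3 fell (11.5%, beside 13.6% of all genes), 2 rose (7.69%, beside 18.7%) and 21 did not pass the test, with a median difference of -0.16. Under the 75th percentile 8 of the 26 (30.8%) were lower and 0 higher, beside 17.2% and 15.9% of all genes. In the level range of the 47 genes 22.7% were then lower. Under quantile normalization the shares were at or below those of all genes tested. Ticrr, which helps load Cdc45, fell by 1.41, from 10.77, 10.79 and 11.10 to 9.32, 9.65 and 9.46 (limma adjusted p = 0.000628). Chtf18, of an alternative clamp loader, read -0.87, and Recql4, a helicase of origin firing, read -0.60, both called. The 2 that rose, Rnaseh2c, a subunit of RNase H2, at 0.71 and Top1, a topoisomerase, at 0.78, were not called under the 75th percentile, where they read 0.34 and 0.41. A second Top1 probe read -0.03 and was not called. Top2a and Dtl did not pass the test on their brightest probes, but a second probe of each was called lower. These second probes read -1.18 and -0.73 (limma adjusted p = 0.0491 and 0.0278). Recql4 was not called over probes above background, where it read -0.41. Among 14 further genes of nucleotide synthesis, 4 fell (28.6%) and 0 rose. Gart, an enzyme of purine synthesis, fell by 1.77 on its brightest probe (limma adjusted p = 0.000567). Its second probe read a smaller fall, -0.78, and was also called. Impdh2, of guanine nucleotide synthesis, read -0.74, and Umps, of pyrimidine synthesis, read -0.60, with a second Umps probe at -0.32 that was not called. The fourth was Dtymk, thymidylate kinase, named after its value was seen, at -0.50. Among 8 genes of chromatin assembly behind the fork, Chaf1b, a subunit of the histone chaperone CAF-1, was the 1 that fell, at -0.71 with an adjusted p = 0.0495, and it was called under quantile and 75th percentile scaling only. Nasp of that list was not called, but its second probe read -0.92 and was called (limma adjusted p = 0.0387). Under the 75th percentile 5 of the 14 nucleotide synthesis genes (35.7%) and 3 of the 8 chromatin assembly genes (37.5%) were lower.

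Of 29 regulators of the step from G1 to S, 7 rose (24.1%) and 4 fell (13.8%), shares close to the 18.7% and 13.6% of all genes tested. Ccnd2, a D-type cyclin, had levels of 8.33, 7.10 and 8.83 in undifferentiated cells and 11.68, 11.58 and 11.70 after retinoic acid, a rise of 3.57 (limma adjusted p = 0.000411). Cdkn2b, an inhibitor of the D-cyclin kinases, rose by 1.95, and E2f6, a repressor of the E2F family, by 1.63. A second E2f6 probe, above the limit on 2 of 6 undifferentiated and 3 of 6 treated arrays, did not pass the filter and read 0.19. E2f2 and E2f1, activators of that family, fell by 1.01 and 0.87, although E2f1 was not called over probes above background or on its second probe. That second probe was above the limit on only 3 of 6 treated arrays. Rbl2, a retinoblastoma relative, read -0.63, called under quantile, 75th percentile and cyclic loess scaling only, and not on its second probe. That probe was above the limit on 4 of 6 undifferentiated and 0 of 6 treated arrays, so it has only a bound after treatment. Ccne1 and Cdc25a were not called, but their second probes were, at -0.58 and -0.69 (limma adjusted p = 0.0409 and 0.0170). Under the 75th percentile 7 of the 29 were higher and 7 lower (24.1% each), beside 15.9% and 17.2% of all genes.
Of 20 genes of G2 and mitosis, 0 fell and 1 rose. That gene was Mki67, a marker of cycling cells, at 0.69 with a limma adjusted p = 0.0483. Its second probe read 0.57 and was not called. Cyclic loess kept the call, at 0.66, but under the median and over probes above background Mki67 read 0.33 and 0.50 and was not called. Under the 75th percentile Mki67 read 0.30 and was not called, and 5 of the 20 genes (25.0%) were then called lower, beside 17.2% of all genes and 22.7% of those in the level range of the 47. The median of the list was -0.07 under quantile normalization and -0.35 under the 75th percentile.

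The groups were checked by markers of ES cells and of the retinoic acid response. All 8 ES cell markers fell, with a median of -4.41, and 6 of 8 response genes rose. The other 2, Rarb and Stra6, both read -0.27 and were not called, from undifferentiated means of 12.40 and 11.95. A second Rarb probe, above the limit on 2 of 6 undifferentiated and 6 of 6 treated arrays, read 0.94 and was called. Markers of other cell types moved with the treatment too, and array brightness was higher after retinoic acid within each replicate number only. Of 15 markers of feeder fibroblasts, 12 were tested, 7 were higher and 1, Thy1, was lower, and their summed intensity was 6278 to 15120 in undifferentiated and 26100 to 32670 in treated samples. Tagln and Acta2, the latter not called, made up 85.9% to 91.4% of the treated sums, and the other 13 genes summed to 1478 to 1750 and 2765 to 3679. Of 12 markers of primitive endoderm and trophoblast, 9 were tested and 5 were higher, with sums of 2482 to 3544 and 48310 to 55740. The keratins Krt18 and Krt8 made up 94.6% to 96.7% of the treated sums, and the other 10 genes summed to 729 to 1480 and 1803 to 3040. Gata4, Foxa2, Afp and Eomes read -0.35, -0.17, -0.41 and -0.47, none of them called. Ttr and Elf5 of that list were above background on no array. The part of such cells and of array brightness in the differences of the replication genes was not tested.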

How the data were processed

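The arrays have 1 colour, Cy3, and the total RNA had 1 round of amplification, per the labels' protocols. The deposited scanner tables hold net mean intensity per spot on a linear scale, per the file headers, for 41174 probes and 94 control rows on each of 12 arrays. Array medians were 37.4 to 96.6, and the number of biological samples, 3 per group, limits the precision. The authors worked in R 2.15.0 with limma, per the submitters' processing notes.

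Probes were named through accessions in the RefSeq table of GRCm38.p6, a build that may differ from that of the array design. Intensities were quantile-normalized, 50 was added, log2 was taken, and technical arrays were averaged (limma 3.58.1, R 4.3.3, lmFit and eBayes, two-sided, no covariates). The brightest probe stood for a gene. A gene was tested if it exceeded the 95th percentile of 27 negative control spots on at least 4 of 6 arrays of either group. Same-numbered samples of the groups did not deviate together (correlations -0.06, 0.22 and 0.07), so numbers were not taken as pairs. Those correlations used quantile-normalized values, which cannot show array brightness, and replicate 3 was the brightest in both groups.

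The members and lists were chosen with earlier results of these data known. All 47 members are named; given in full are called members whose groups do not overlap (up to 4 per role), and Pcna, Mcm2, Gmnn and Rrm2; of the other lists, up to 3 called genes each way. In simulated data for this comparison (15322 genes, 20 runs), 39.8% of changes of size 1 and 86.3% of size 2 on the log2 scale were recovered. Each run changed 200 genes and had 5.35 false calls on average. Far more genes were called in the data, which moves the adjusted p threshold, so the recovered shares may not hold there. Python 3.11.15 with matplotlib 3.10.9 drew the figures. Alternatives are given in the closing section.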

Additional observations from a re-analysis of the deposited data

How the results depend on the processing

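In 24 alternatives, the 47 genes gave 1125 comparisons with the values reported: 1013 kept direction and side of the threshold, 35 lost a call, 35 gained one and 42 changed sign, 0 of them where either fit made a call. Several alternatives left the difference itself as it was, so the sign could not change there and the 1013 overstates stability. These changed only the background filter, the block, the variance model or the threshold. Averaging the probes of a gene likewise left genes with 1 probe as they were. Cause was not tested. The number of genes called lower, 11, became 21 under 75th percentile scaling and 17 with all 12 arrays and the sample as a random block. It was 5 at an adjusted p under 0.01, and 5 to 12 when a sample was left out. With the second brightest probe it was 7 of 44 tested. In that fit a gene with 1 probe kept that probe, and only 17 of the 47 genes had more than 1. Of the second probes only that of Mcm3 was called. Those of Orc5 and Dbf4 were mostly or wholly at background after treatment. The number called lower was 11 with the authors' values or without the array whose header names another array of its sample, and 10 to 16 under the others. The number called higher was 0 throughout. With the replicate block 12 were lower: Gins1 lost its call (adjusted p = 0.0700), and Pole and Prim2 gained one (0.0425 and 0.0441). The median difference, -0.25, moved to -0.56 (75th percentile), -0.53 (median) and -0.37 (probes above background on all 12 arrays, chosen after seeing the data).

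Signs changed only for genes not called, with reported differences from -0.16 for Pold2 to 0.36 for Rrm1. Under the 75th percentile Cdc6 read -0.11, Fen1 -0.086, Gins2 -0.031, Gins3 -0.046, Pcna -0.42, Rfc2 -0.059, Rfc3 -0.0025, Rfc4 -0.12, Rpa1 -0.36, Rrm1 -0.013 and Tk1 -0.027. Under the median Cdc6 read -0.076, Fen1 -0.052, Gins3 -0.012, Pcna -0.39, Rfc2 -0.024, Rfc4 -0.081 and Rpa1 -0.32. Over probes above background Pcna read -0.22 and Rpa1 -0.15. With technical array 2 alone Pcna read -0.23, Rpa1 -0.033, Pola2 0.098 and Rpa3 0.058. Cdc6 read -0.0017 as the mean of its probes and -0.12 on its second probe. Leaving out a sample gave ranges of -0.069 to 0.26 for Cdc6, -0.12 to 0.20 for Gins3, -0.27 to 0.060 for Mcm7, -0.15 to 0.18 for Pcna, -0.32 to 0.20 for Pola2, -0.45 to 0.044 for Pold2, -0.34 to 0.025 for Rfc1, -0.041 to 0.18 for Rpa1 and -0.25 to 0.033 for Rpa3.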
